A study of Mus musculus with 18 samples.

Results

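The late-numbered miRNAs of Baf3 cells are the hairpins to which the miRNA registry gave a number of 1000 or more. Such numbers were assigned after deep sequencing became common, and most of the hairpins concerned are known only from rodents. The members described here were chosen by name and by abundance, as entries named mir-N with N of at least 1000, other than mir-1224, whose counts summed to at least 90 over 18 libraries. Of the 1006 precursor entries, 574 were late-numbered and 95 of these were members. Another 172 had no count in any library and 307 had 1 to 89 counts. Because the abundance threshold was part of the rule, the summed counts below are a description and support nothing.

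Baf3 is an established mouse pro-B cell line that needs interleukin-3 to grow. All cells carried fluorescent reporters, were transduced with Cas9 and 1 guide RNA, and were selected with puromycin. Control cells received a guide against Rag1, SAFB cells a guide against the paralogs Safb and Safb2 (labelled Safb1 KO, Safb2 KO), and ERH cells a guide against Erh, with 2 guides for each genotype. The edited populations were polyclonal and had been sorted for loss of repression of a dsRed reporter of miR-15a before they were regrown, so the knockout cells are those in which that miRNA had become less active. How control cells were sorted is not given in the labels. A genotype is represented by 2 edited populations and 6 libraries, with 1 library per population in every one of the 3 batches named in the labels. The p-values below measure the spread between these libraries. The targeted mRNAs were not measured in these small RNA libraries. In such bulk samples fewer cells with a miRNA and less of it per cell cannot be told apart.

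Canonical miRNAs are cut from the primary transcript by the Microprocessor, made of Drosha and Dgcr8, and then by Dicer. SAFB proteins and ERH bind the Microprocessor and help it to process weak hairpins that lie beside strong ones. Many late-numbered hairpins do not follow the standard path: some are introns released by splicing (mirtrons), some are pieces of small nucleolar, Cajal body or transfer RNAs, some lie on the opposite strand of a better known miRNA, and some are in exons of coding genes. The Dgcr8 mRNA itself carries hairpins that the Microprocessor cuts, a known feedback on its own subunit.

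The mature sequences of the members that the results turn on follow, with the seed (bases 2 to 8) in capitals. They come from the RefSeq table of build GRCm38.p6, which held a mature sequence for 87 of the 95 members. The arms of the Dgcr8 hairpins mir-1306 and mir-3618 are shown because the results compare these neighbours.
mmu-miR-1306-5p: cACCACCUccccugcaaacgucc
mmu-miR-1306-3p: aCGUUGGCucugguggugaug
mmu-miR-3618-5p: uGUGAUUUccaauaauugaggc
mmu-miR-3618-3p: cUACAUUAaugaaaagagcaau
Members annotated inside small nucleolar or Cajal body RNAs are shown because several are among the most abundant members. The 5p arms of mir-1843a and mir-1843b share at least 15 bases but start at different bases, which shifts the seed.
mmu-miR-1839-5p: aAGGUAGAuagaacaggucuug
mmu-miR-1843a-5p: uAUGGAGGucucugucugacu
mmu-miR-1843b-5p: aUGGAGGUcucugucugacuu
mmu-miR-3535: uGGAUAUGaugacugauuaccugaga
mmu-miR-3068-3p: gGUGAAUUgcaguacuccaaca
The entries that the annotation tied to a transfer RNA are shown because their reads may have a source other than a hairpin. The mature sequence of mir-6481 also occurs in the mitochondrial phenylalanine tRNA mt-Tf.
mmu-miR-1983: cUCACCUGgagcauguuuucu
mmu-miR-6481: cACUGAAAaugcuuagaug
Members on the opposite strand of another miRNA are shown beside their partners' results.
mmu-miR-3065-5p: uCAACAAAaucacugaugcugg
mmu-miR-3074-5p: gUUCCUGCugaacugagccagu
The remaining sequences belong to hairpins whose libraries did not overlap between a knockout and control.
mmu-miR-5123: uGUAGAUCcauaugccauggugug
mmu-miR-3968: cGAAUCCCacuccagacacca
mmu-miR-3473f: cAAAUAGGacuggagagaug
mmu-miR-1964-3p: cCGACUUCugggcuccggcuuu
mmu-miR-1198-5p: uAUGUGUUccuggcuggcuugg

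Over the 129 mature arms in the table, length ran from 18 to 26 bases with a median of 22, and 100 arms were 21 to 23 bases long. The seed of 19 arms also occurred in another mouse mature miRNA. In 4 arms the seed was shared with another member: mmu-miR-1943-5p with mmu-miR-6967-5p, and mmu-miR-1947-3p with mmu-miR-3473d. The members therefore hold few seed families, and most seeds in this list belong to 1 hairpin.

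The members were rare. Libraries held 2699323 to 4470073 miRNA counts, of which the members took 0.239% to 0.278% in control, 0.222% to 0.245% in SAFB and 0.264% to 0.313% in ERH. Between 91 and 95 members had a count in a given library, and 79 had one in all 18. Summed counts ran from 91 to 38695 with a median of 230, and 20 members reached 1000. Just inside the threshold were mir-8090 with 91 counts, mir-1945 and mir-7033 with 92 and mir-3473b with 94. Just outside it were mir-6992 with 87, mir-3471 with 83, and mir-5128 and mir-7670 with 82.

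**Figure D1:**
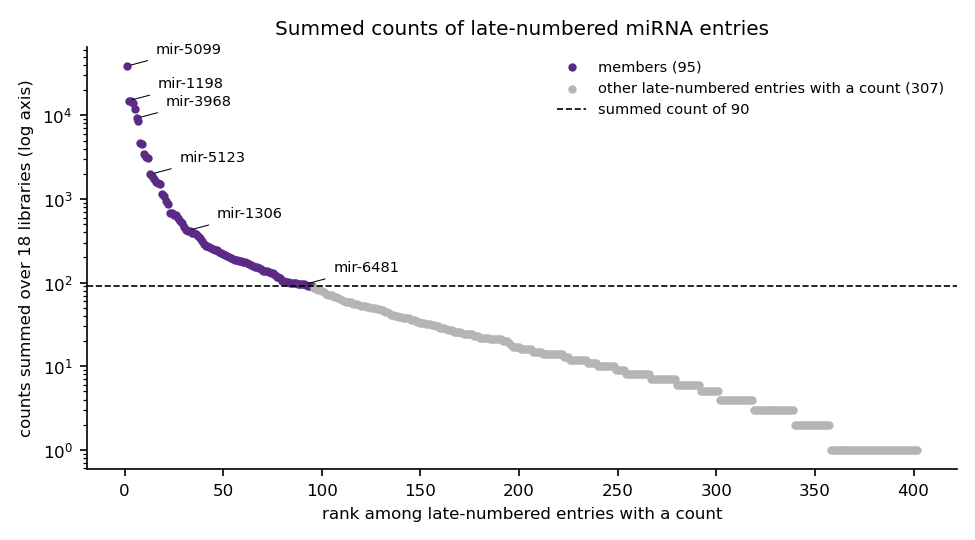
Counts summed over 18 libraries (log axis) against rank, for the late-numbered entries with a count, 95 members and 307 others. The members lie above the dashed line at 90 counts, and mir-5099 lies highest with 38695.

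Each library was scaled by the trimmed mean of M-values (TMM), and levels are given as CPM, counts relative to a fixed library total, after that scaling. A single hairpin, mir-5099, supplied 30.0% to 39.5% of all member counts in control but 15.4% to 22.3% in SAFB and 17.9% to 22.1% in ERH. Neither knockout range overlapped the control range. Without mir-5099 the other 94 members took 0.160% to 0.181% of miRNA counts in control, 0.185% to 0.200% in SAFB and 0.209% to 0.255% in ERH. These 3 ranges of raw shares did not overlap each other, whereas the SAFB and control ranges with mir-5099 did. After TMM scaling the picture differed: the 94 members summed to 1755 to 1922 CPM in control, 1910 to 2136 in SAFB and 1877 to 2139 in ERH, so the knockout ranges coincided and both overlapped control. All 95 members summed to a mean of 2751 CPM for control, 2491 for SAFB and 2504 for ERH, so ERH was below control on this scale and above it as a raw share.

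**Figure D2:**
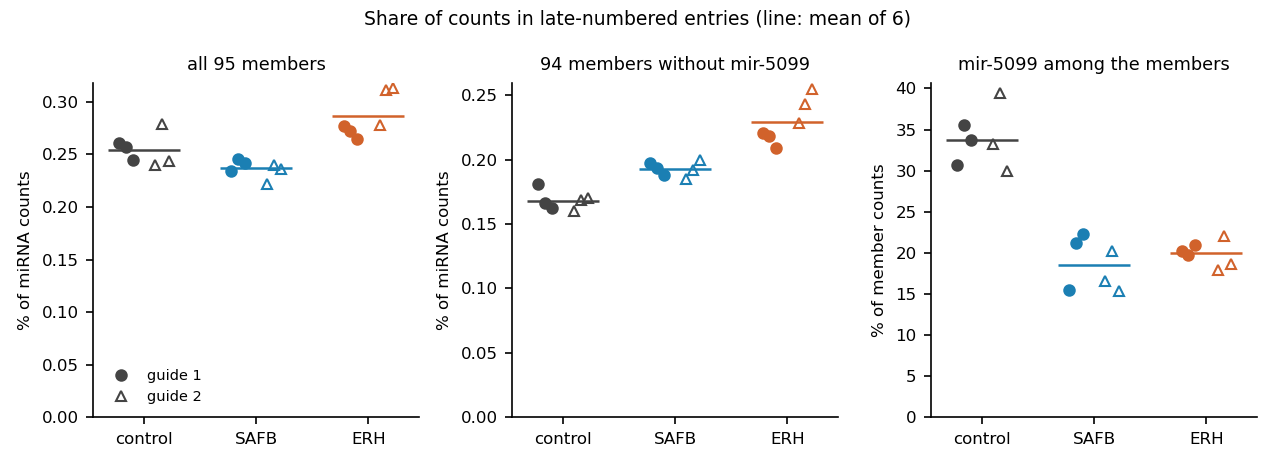
Share of miRNA counts in the 95 members, in the 94 without mir-5099, and share of mir-5099 among member counts (y axes, percent) by genotype, with filled circles for guide 1, open triangles for guide 2 and a line at the mean of 6. Without mir-5099 the raw share is 0.160% to 0.181% in control and 0.209% to 0.255% in ERH, an order that the TMM-scaled sums (1910 to 2136 CPM in SAFB, 1877 to 2139 in ERH) do not show between the knockouts, while mir-5099 itself takes the largest share in control.

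Cell identity was checked with fixed miRNA markers. The blood and B-lineage markers found under their listed names (4 of 5) summed to between 11940 and 28180 CPM in every library, led by mir-223 and mir-181a, and were higher in SAFB (21310 to 28180) than in control (11940 to 18490). Within that list mir-223 went from a mean of 9611 to 17410 CPM and mir-181a from 3114 to 4662, whereas mir-155 went from 1754 to 1609 and mir-150 from 19.3 to 4.91. Erythroid markers stayed at or below 2.31 CPM, muscle markers at or below 5.80 and embryonic stem cell markers at or below 7.92, with mir-206, mir-294 and mir-295 at 0 in all libraries. Liver mir-122 reached 34.2 CPM and the 5 epithelial markers 145 to 222. The 2 neuronal markers rose with genotype, from 4.28 to 15.8 CPM in control to 51.6 to 107 in SAFB and 195 to 376 in ERH, nearly all of it mir-9 with mir-124 near 0. Whether these marker levels have a part in the member changes was not tested.

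The question put to the genotype comparison was which miRNAs depend on SAFB or ERH. The quasi-likelihood test of edgeR was fitted over the whole table, with Benjamini-Hochberg adjustment over the 273 entries that passed the filter on low counts, and an adjusted p under 0.05 is termed a call. Of the 95 members 85 passed that filter. The other 10, with summed counts of 92 to 106, were mir-7656, mir-1960, mir-3110, mir-3097, mir-5116, mir-3069, mir-5136, mir-1950, mir-1945 and mir-7033, and have levels but no test. A member of low count can pass the filter through the populations in which it is high, so the counts over tested members are descriptions. The filter asked for about 2.86 CPM in at least 3 libraries, with CPM here taken before TMM scaling. In 7 of the 21 members called higher and 5 of the 16 called lower in SAFB, the lower of the compared groups did not reach that level in 3 libraries, and likewise in 4 of 14 and 3 of 11 in ERH. Such members were tested through groups in which they are high, and no support is taken from their p-values.

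In SAFB 37 of the 85 tested members changed, 21 upward and 16 downward. With scaling to the spike-ins the 21 became 5, and with a mean of at least 20 counts required the numbers were 13 and 9. Under that requirement 38 of the 62 calls against control in both knockouts were still tested, and 37 of these held. Over all 273 entries 56.0% were called, 30.8% upward and 25.3% downward, beside 43.5% of the tested members. In 18 members the call came with no overlap between the 6 SAFB and 6 control libraries, against 36.6% of all entries. In ERH 25 members changed, 14 upward and 11 downward, which is 29.4% of those tested beside 53.8% of all entries, with 26.4% upward and 27.5% downward. The 14 became 22 with total-count scaling, and the 11 became 6 with it and 5 with spike-ins. There 9 members were called without overlap, against 37.4% of all entries. The median log2 fold change of tested members was 0.10 in SAFB and -0.07 in ERH, and that of all tested entries 0.01 and -0.06.

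The share called moved with abundance. Among the 26 tested members with a mean of at least 10 CPM, 20 were called in SAFB and 13 in ERH. Among the 59 below 10 CPM, 17 were called in SAFB and 12 in ERH. Tested entries outside the list were called in 100 of 156 (SAFB) and 103 of 156 (ERH) at 10 CPM or more, and in 16 and 19 of 32 below it. No test was made of these differences in share.

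Both comparisons use the same 6 control libraries, so their values are set side by side without a measure of likeness. Hairpin mir-3473h, called lower in SAFB, was also called in ERH with the batch as a paired term (replicate block), at -0.64 with an edgeR adjusted p of 0.0352.

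Values in every library are plotted for 17 members: the 5 most abundant in control, the 12 with the smallest adjusted p among the 21 called without overlap, and mir-1198, mir-1306, mir-1983 and mir-3061. In the text each is given by the lowest, median and highest of 6 libraries per genotype.

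**Figure D3:**
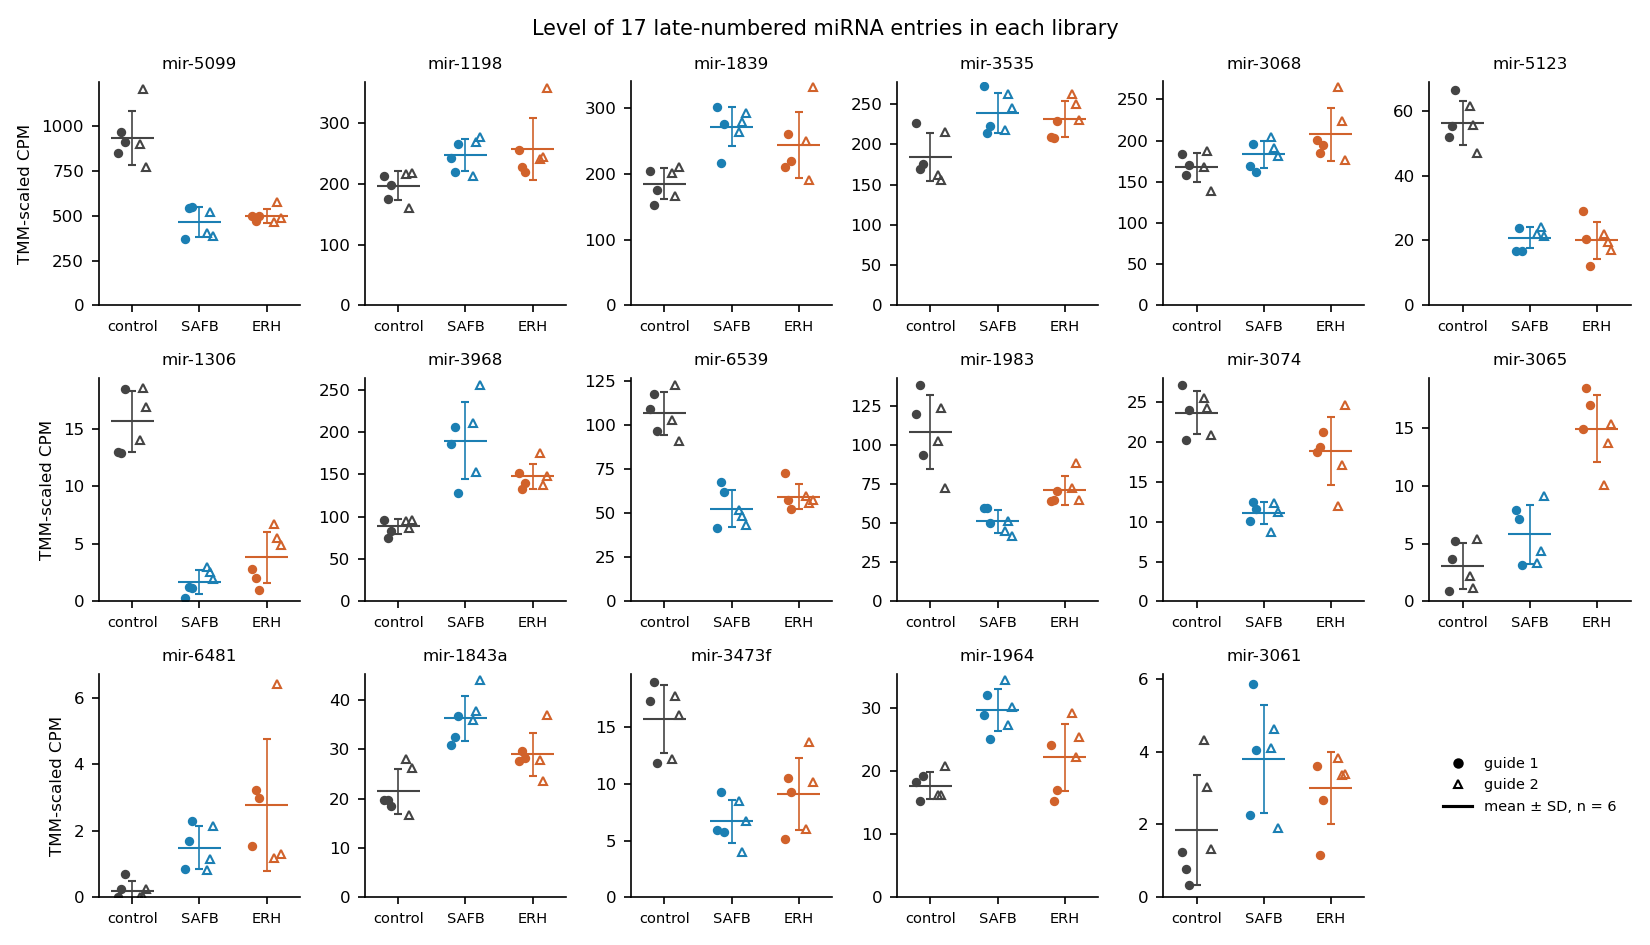
TMM-scaled CPM (y axes, each starting at 0) of 17 members by genotype, with filled circles for guide 1, open triangles for guide 2, and a line with bars for mean ± SD of 6 libraries. The control points of mir-5099, mir-5123, mir-1306 and mir-6539 all lie above both knockouts, and those of mir-3968 all lie below.

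The Dgcr8 hairpins include the member with the largest fitted fall in each knockout, mir-1306, and its neighbour mir-3618. Hairpin mir-1306 lies on the minus strand at chr16:18284239-18284317 (GRCm38.p6), inside a coding exon of Dgcr8 in GENCODE M21, and mir-3618 lies 232 bp away at chr16:18284550-18284637, in an untranslated part of the same transcript. In control mir-1306 had 12.9, 15.4 and 18.5 CPM (lowest, median, highest). In SAFB it had 0.281, 1.57 and 3.01 CPM, and in ERH 0.999, 3.88 and 6.71 CPM. All 12 knockout libraries thus lay below all 6 control libraries. Before TMM scaling the filter level was reached in 6 control, 0 SAFB and 4 ERH libraries, so the SAFB value is a description. The log2 fold change was -3.18 (SE 0.38, edgeR adjusted p = 1.57e-07) for SAFB, a 9.03-fold fall, and -1.99 (SE 0.34, adjusted p = 2.61e-05) for ERH, a 3.97-fold fall. The fall held in all 4 guide pairings, from -4.15 to -2.55 in SAFB and from -3.02 to -1.36 in ERH, and within each batch.

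The neighbour mir-3618 showed no such fall. No control library reached the filter level, so mir-3618 was tested through knockout libraries and its values are descriptions. It had 1.51, 2.27 and 2.52 CPM in control, 1.195, 1.86 and 3.83 in SAFB and 0.879, 2.81 and 4.67 in ERH, and all groups overlapped. Its log2 fold change was 0.04 (SE 0.40, edgeR adjusted p = 0.957) for SAFB and 0.35 (SE 0.39, adjusted p = 0.475) for ERH. Nothing is read from these p-values. Summed over 6 libraries, mir-1306 and mir-3618 had 295 and 40 counts in control, 38 and 48 in SAFB, and 86 and 59 in ERH. The ratio of mir-1306 to mir-3618 was therefore 7.38 for control, 0.792 for SAFB and 1.46 for ERH.

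That ratio was compared within libraries, a comparison chosen after the values had been seen. On the log2 scale, with 0.5 added to each count, it was 2.81 ± 0.47 for control (SD, n = 6), -0.48 ± 1.21 for SAFB and 0.46 ± 0.59 for ERH. The difference from control was -3.30 in SAFB and -2.35 in ERH. These are descriptions with no test, since the ratio was chosen on these libraries. Within batches the difference was -4.02, -2.97 and -2.89 in SAFB and -1.90, -1.96 and -3.20 in ERH. ERH minus SAFB was 0.94, and within batches 2.12, 1.01 and -0.31.

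**Figure D4:**
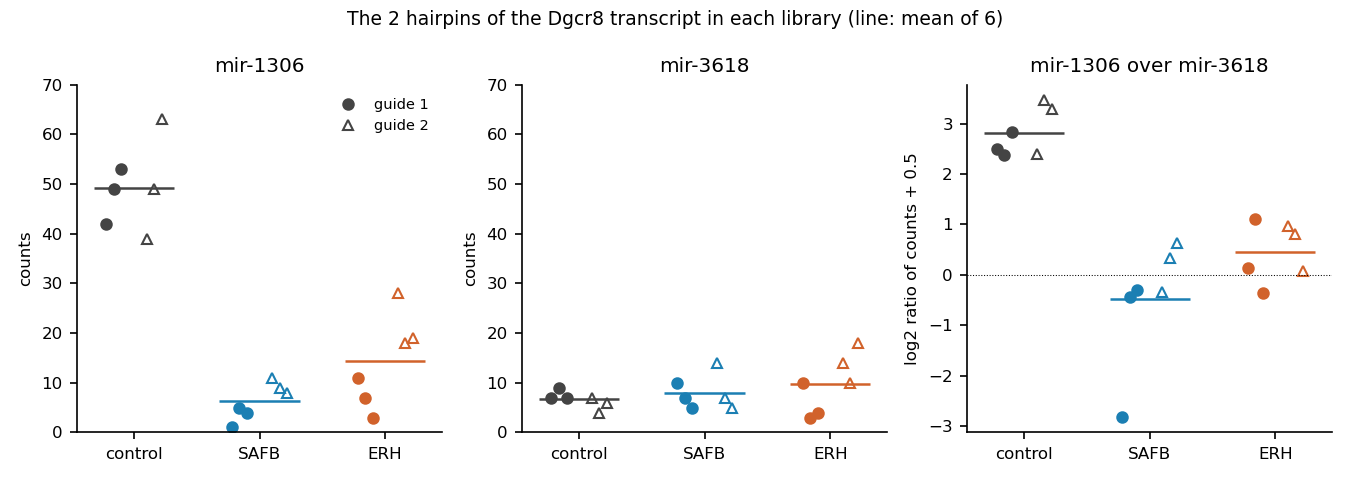
Counts per library (y axes of the first and second panels) of mir-1306 and mir-3618, and the log2 ratio of their counts plus 0.5, by genotype with filled circles for guide 1, open triangles for guide 2 and a line at the mean of 6. Counts of mir-1306 are 39 to 63 in control and at most 28 in a knockout library, while those of mir-3618 stay between 3 and 18 in all genotypes.

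Members inside small nucleolar or Cajal body RNAs, which guide the modification of ribosomal and spliceosomal RNAs, included no call downward against control. The annotation placed 9 members in such RNAs, mir-1291, mir-1839, mir-1843a, mir-1843b, mir-3068, mir-3069, mir-3084, mir-3535 and mir-5121, of which 8 were tested. In each knockout 4 of 8 were called higher by edgeR, and 0 lower, also at an unadjusted p under 0.05. Those that missed the threshold included mir-3084, at -0.59 in SAFB and -0.52 in ERH, and mir-1291, at -0.60 in ERH. Over all tested entries 30.8% were called higher in SAFB and 26.4% in ERH, and 25.3% and 27.5% were called lower. Whether the 4 higher and 0 lower of 8 differ from these shares was not tested. With scaling to the spike-ins the 4 SAFB calls were lost, at adjusted p of 0.323 for mir-1839, 0.157 for mir-1843a, 0.615 for mir-1843b and 0.680 for mir-3535. Each of the 4 ERH calls was lost without 1 population: mir-1839 without control guide 1 (0.0600), mir-1843a without control guide 1 or ERH guide 1 (up to 0.188), and mir-3068 and mir-3535 without control guide 2 or ERH guide 2 (up to 0.0734 and 0.103). Without the low-count filter mir-1843a and mir-3068 had adjusted p of 0.0996 and 0.0584 in ERH. The grouping by annotation was made after the data had been seen.

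The most abundant of these was mir-1839, at chr7:81529916-81529988 in a Cajal body RNA. It had 153, 188 and 211 CPM in control, 217, 277 and 301 in SAFB, and 191, 234 and 331 in ERH. SAFB and control did not overlap, ERH and control did. The log2 fold change was 0.55 (SE 0.12, edgeR adjusted p = 0.000578) for SAFB and 0.39 (SE 0.12, adjusted p = 0.00845) for ERH. Hairpin mir-1843a, in Scarna3b within an intron of Dcaf5 (chr12:80391613-80391677), had 16.6, 19.8 and 28.1 CPM in control, 30.9, 36.3 and 44.0 in SAFB, and 23.5, 28.1 and 36.9 in ERH. It too was clear of control in SAFB only, at 0.75 (SE 0.15, edgeR adjusted p = 0.000145) against 0.43 (SE 0.15, adjusted p = 0.0170) in ERH, and ERH and SAFB did not differ past the threshold (adjusted p = 0.0799) except without ERH guide 2 batch 3. Its relative mir-1843b, in Scarna3a on chromosome 1, had log2 fold changes of 0.45 (adjusted p = 0.0395) and 0.27 (adjusted p = 0.234) by edgeR. Reads of the nearly identical 5p arms could have been split between the entries by the counting.

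Hairpin mir-3535, in a small nucleolar RNA of the nucleolin gene Ncl (chr1:86351981-86352127), had 156, 172 and 226 CPM in control, 214, 234 and 272 in SAFB and 208, 229 and 263 in ERH. Its log2 fold changes were 0.38 (SE 0.11, edgeR adjusted p = 0.00425) and 0.33 (SE 0.11, adjusted p = 0.0101), and each knockout overlapped the control range. Hairpin mir-3068, in a small nucleolar RNA within an intron of Alkbh1 (chr12:87437679-87437757), had 139, 169 and 187 CPM in control, 162, 186 and 204 in SAFB and 177, 198 and 266 in ERH. It changed in ERH, by 0.31 (SE 0.11, edgeR adjusted p = 0.0148), while the SAFB value was 0.13 (SE 0.11, adjusted p = 0.296). ERH minus SAFB was 0.18, with an edgeR adjusted p of 0.199. Of the others, mir-1291 in Snora34 was lower in ERH than in SAFB by 0.85 (edgeR adjusted p = 0.0450), with neither knockout called against control. With the batch as a paired term (replicate block) that difference was -0.82 with an adjusted p of 0.0649. Without the SAFB guide 1 library of batch 1, where mir-1291 was highest at 21.9 CPM, it was -0.40 (edgeR adjusted p = 0.278).

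Transfer RNAs are cut into small fragments that small RNA libraries also capture, and the annotation tied 2 members to them. Such ties were sought by overlap with transfer RNA genes and by matches to annotated transcripts. Whether reads of other members come from transfer RNAs was not tested. Hairpin mir-1983 overlaps the isoleucine tRNA gene n-TItat14 of the RefSeq table on the minus strand of chromosome 13 (chr13:21896918-21897049). It had 72.5, 111 and 138 CPM in control, 41.8, 50.6 and 59.4 in SAFB, and 64.4, 67.6 and 88.4 in ERH. All SAFB libraries lay below all control libraries, and ERH overlapped control. The log2 fold change was -1.08 (SE 0.14, edgeR adjusted p = 7.25e-07) for SAFB and -0.61 (SE 0.14, adjusted p = 0.000694) for ERH. SAFB was also lower than ERH, with no overlap, by 0.47 on the log2 scale (edgeR adjusted p = 0.0108). Without the population SAFB guide 2 or ERH guide 2 that difference was 0.31 or 0.35 and was not called. The ERH call against control was lost with total-count scaling (-0.31, edgeR adjusted p = 0.0912) and with spike-in scaling (-0.28, adjusted p = 0.465).

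Entry mir-6481 was nearly absent from control, with 4 counts over 6 libraries. It had 0 to 2 counts per control library, 3 to 9 per SAFB library and 5 to 21 per ERH library, which is a description. Before TMM scaling the filter level was reached in 0 control, 0 SAFB and 3 ERH libraries. The entry thus passed the low-count filter through ERH, where it is high. In CPM it had 0, 0.132 and 0.698 in control, 0.822, 1.43 and 2.31 in SAFB and 1.198, 2.27 and 6.40 in ERH. The fitted log2 fold changes were 2.66 (SE 0.74, edgeR adjusted p = 0.00378) and 3.49 (SE 0.68, adjusted p = 0.000128). At such counts the size depends on the fit, and nothing is read from these p-values for the reason given. Its summed count of 95 is close to the threshold of 90. Its hairpin was placed at chr3:99199344-99199453, opposite an intron of Wars2, while its 19-base mature sequence is also a piece of mt-Tf, so the source of the reads cannot be told apart.

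Hairpins on the opposite strand of another miRNA are set beside their partners. Hairpin mir-3065 lies at chr11:120014767-120014853, on the plus strand opposite mir-338 in an intron of Aatk, a kinase gene of neurons. It had 0.926, 2.92 and 5.35 CPM in control, 3.17, 5.70 and 9.08 in SAFB and 10.1, 15.1 and 18.5 in ERH. ERH lay above both other groups without overlap, at a log2 fold change of 2.23 against control (SE 0.35, edgeR adjusted p = 7.87e-06) and 1.34 against SAFB (SE 0.32, adjusted p = 0.00170). In SAFB it was 0.89 (SE 0.36, edgeR adjusted p = 0.0424), with overlap. That call was lost without control guide 1 batch 1, control guide 2 batch 1 or 2, SAFB guide 1 batch 1 or 2, or SAFB guide 2 batch 3, at 0.74 to 0.90 with adjusted p from 0.0622 to 0.106, and with spike-in scaling at 0.173. The partner mir-338 had 52.4 ± 9.25 CPM in control libraries, 55.7 ± 7.62 in those of SAFB and 66.8 ± 14.5 in those of ERH (SD, n = 6), with log2 fold changes of 0.09 and 0.35 (edgeR adjusted p = 0.648 and 0.0614). The neuronal marker mir-9 rose in the same order of genotypes as mir-3065, and its part in the change was not tested.

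Entry mir-3074 has copies opposite both mir-24 genes, at chr8:84208825-84208907 and, in an intron of Fancc, at chr13:63301199-63301283. It had 20.3, 24.1 and 27.2 CPM in control, 8.76, 11.4 and 12.5 in SAFB, and 11.98, 19.0 and 24.7 in ERH. SAFB lay below control without overlap, at -1.09 (SE 0.16, edgeR adjusted p = 4.80e-06). ERH was at -0.33 (SE 0.16, edgeR adjusted p = 0.0860), and ERH was above SAFB by 0.76 (SE 0.16, adjusted p = 0.000675). The partner mir-24 fell in both, by log2 values of -0.24 (edgeR adjusted p = 0.00161) and -0.40 (adjusted p = 4.05e-06). Whether the counting kept the strands apart is not given in the sources used here.

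Hairpins with no gene on their strand included the most abundant member, mir-5099. RefSeq held no mature sequence for it, so matches to other transcripts could not be sought and the source of its reads was not tested. Hairpin mir-5099, at chr12:36816205-36816278, fell from 771, 903 and 1205 CPM in control to 369, 463 and 549 in SAFB and 466, 492 and 575 in ERH, without overlap. The log2 fold change was -1.01 (SE 0.11, edgeR adjusted p = 7.00e-08) for SAFB and -0.90 (SE 0.11, adjusted p = 3.49e-07) for ERH, and the knockouts did not differ past the threshold (adjusted p = 0.483). Hairpin mir-3968, at chr11:115447961-115448060 opposite a coding exon of Trim80, rose instead, and the source of its reads was not tested. It had 74.9, 91.2 and 96.6 CPM in control, 128, 196 and 255 in SAFB, and 133, 144 and 175 in ERH, with no overlap of either knockout with control. Its log2 fold change was 1.10 (SE 0.13, edgeR adjusted p = 2.41e-07) for SAFB and 0.73 (SE 0.13, adjusted p = 5.63e-05) for ERH. The ERH rise was smaller than the SAFB rise by 0.36 (edgeR adjusted p = 0.0308). That difference was lost without SAFB guide 2 batch 1 or 3 or ERH guide 1 batch 2, at -0.37 to -0.26 with adjusted p from 0.0507 to 0.107, and it was 0.19 with scaling to the spike-ins. Of the 14 members in this setting, 11 were tested. SAFB called 1 of them higher and 4 lower, and ERH 1 and 2, beside the same 56.0% and 53.8% of all tested entries.

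Members inside introns of coding genes were the largest class, 36 with 31 tested, with 7 called higher and 7 lower in SAFB and 4 and 4 in ERH, beside 56.0% and 53.8% of all tested entries called in either direction. Hairpin mir-5123, in B4galt1, a galactosyltransferase gene (chr4:40850056-40850138), fell from 47.1, 55.5 and 66.3 CPM in control to 16.7, 21.7 and 24.2 in SAFB and 11.99, 20.02 and 29.2 in ERH, without overlap. The change was nearly the same size in both, -1.43 (SE 0.17, edgeR adjusted p = 1.14e-07) and -1.48 (SE 0.17, adjusted p = 5.66e-08), and ERH minus SAFB was -0.05 with an SE of 0.17 (adjusted p = 0.826). Hairpin mir-3473f, in the survival gene Bcl2 (chr1:106546496-106546631), had 11.9, 16.7 and 19.0 CPM in control, 4.04, 6.297 and 9.28 in SAFB, and 5.13, 9.72 and 13.7 in ERH. It fell by 1.22 (SE 0.24, edgeR adjusted p = 0.000145) in SAFB, clear of control, and by 0.79 (SE 0.23, adjusted p = 0.00626) in ERH, with overlap. Total-count and spike-in scaling ended the ERH call, at edgeR adjusted p of 0.107 and 0.333, as did leaving out the population control guide 1 or ERH guide 1 (up to 0.0657).

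Hairpin mir-1198, in an intron of Gripap1 (chrX:7807101-7807221), was called higher in both. It had 161, 206 and 218 CPM in control, 213, 254 and 277 in SAFB, and 219, 243 and 359 in ERH. ERH was clear of control and SAFB overlapped it, at log2 fold changes of 0.39 (SE 0.12, edgeR adjusted p = 0.00697) and 0.33 (SE 0.12, adjusted p = 0.0201). The highest ERH value, guide 2 batch 3, stood apart from the other ERH libraries, which reached 255 CPM. The ERH call was lost without the population ERH guide 2 (0.29, edgeR adjusted p = 0.0608). The SAFB call was lost without control guide 1, where the log2 fold change was 0.40 (edgeR adjusted p = 0.0509), and with spike-in scaling (0.08, adjusted p = 0.819). Hairpin mir-1964, in an intron of the zinc finger gene Zfp84 (chr7:29773294-29773376), had 15.3, 17.2 and 20.9 CPM in control, 25.1, 29.5 and 34.5 in SAFB, and 15.2, 23.2 and 29.2 in ERH. It rose in SAFB by 0.75 (SE 0.16, edgeR adjusted p = 0.000290), clear of control. In ERH it was at 0.33 (SE 0.16, edgeR adjusted p = 0.0788), lower than in SAFB by 0.41 (adjusted p = 0.0355). The ERH value passed the threshold without control guide 2 batch 3, SAFB guide 1 batch 1 or 2, SAFB guide 2 batch 1 or 2, or ERH guide 1 batch 2 or 3. The difference between the knockouts was lost without SAFB guide 2 batch 1 or 3 or ERH guide 1 batch 2 or 3, at -0.40 to -0.36, and was 0.16 with scaling to the spike-ins, which also ended the SAFB call (edgeR adjusted p = 0.172). Without the low-count filter the difference between the knockouts had an adjusted p of 0.104.

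Some intronic members of low count also moved by large factors. Hairpin mir-1929, in an intron of the autophagy gene Atg5, fell in SAFB from 3.75 to 5.76 CPM in control to 1.47 to 2.31, without overlap (log2 fold change -1.25, edgeR adjusted p = 0.000865), and ERH exceeded SAFB by 1.00 (adjusted p = 0.00845). That difference was lost without the population SAFB guide 1 or ERH guide 2, at 0.68 to 0.84, and without the low-count filter (edgeR adjusted p = 0.103). No SAFB library reached the filter level, against 6 in control and 4 in ERH, so these p-values too are not support. Hairpin mir-6399, in an intron of the translation factor gene Eif4g3, fell in ERH from 3.49 to 15.5 CPM in control to 1.198 to 3.35, without overlap (-1.64, edgeR adjusted p = 0.000665), and by 1.35 in SAFB with overlap (adjusted p = 0.00287), a call lost without the population SAFB guide 2 (-0.78). Hairpin mir-1968, in an intron of Grtp1, had 0 to 4.92 CPM in control and 3.33 to 9.15 in ERH, a fitted log2 difference of 2.34 with overlap. Before TMM scaling it reached the filter level in 1 control, 1 SAFB and 6 ERH libraries. It was thus tested through ERH, where it is high, and nothing is read from its p. The same holds for its ERH minus SAFB value of 1.25, whose call was also lost with the batch as a paired term (replicate block, edgeR adjusted p = 0.0505).

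Mirtrons end at splice sites. A mature arm ended within 3 bases of a splice site in 10 members, mir-1966, mir-1981, mir-3064, mir-3076, mir-3087, mir-3097, mir-3103, mir-6960, mir-6967 and mir-7033, and in mir-1981 this held at both ends of the intron. Of these 8 were tested, and by edgeR at an adjusted p under 0.05 the only call was mir-6967, lower in SAFB by 1.06 (adjusted p = 0.0200), with 0 in ERH, also at an unadjusted p under 0.05, beside 56.0% and 53.8% of all tested entries called. That call was lost without control guide 1 batch 2, control guide 2 batch 1, SAFB guide 1 batch 1 or 2, or SAFB guide 2 batch 3, at -0.96 to -0.83 with adjusted p from 0.0509 to 0.0682. The most abundant was mir-1981, in Marc2, with 51.4, 54.8 and 68.3 CPM in control, 45.2, 55.2 and 72.5 in SAFB, and 37.8, 47.9 and 65.4 in ERH. Its log2 fold changes were -0.03 (SE 0.14) and -0.23 (SE 0.14), with edgeR adjusted p of 0.894 and 0.207. Over the 8 tested the SE ran up to 0.54 in SAFB and 0.59 in ERH, so small changes were not detectable at this depth.

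The hairpins of 18 members overlapped exons of coding genes in at least part, and 17 of these members were tested. Such overlap does not place the mature arm in the mRNA. Of these members, mir-1966, mir-3064, mir-3076 and mir-3103 also had an arm ending at a splice site. SAFB called 6 higher and 2 lower, and ERH 2 and 2, beside 56.0% and 53.8% of all tested entries. Besides mir-1306, mir-7676 and mir-3057 were called in SAFB without overlap. The first is an entry whose copies lie in coding exons of Csf2rb and Csf2rb2 (chr15:78348599-78348660 and chr15:78284788-78284849), genes for the beta chain of the interleukin-3 receptor on which Baf3 growth depends. It had 36.7, 40.6 and 44.2 CPM in control, 49.0, 58.6 and 65.0 in SAFB, and 36.6, 46.5 and 61.9 in ERH. SAFB was clear of control at 0.50 (SE 0.13, edgeR adjusted p = 0.00206), and ERH was at 0.20 (SE 0.13, adjusted p = 0.214). Hairpin mir-3057 in Apba3 rose by 1.03 (adjusted p = 0.00211) and 0.86 (adjusted p = 0.00839), and mir-5114 in the desaturase gene Scd2 by 0.87 (adjusted p = 0.00513) and 0.86 (adjusted p = 0.00574), in SAFB and ERH by edgeR. With spike-in scaling the SAFB calls of all 3 were lost, at adjusted p of 0.496 for mir-7676, 0.118 for mir-3057 and 0.159 for mir-5114. The ERH call of mir-3057 was lost without the population control guide 1 or ERH guide 2 (up to 0.0726) and without the low-count filter (0.0625). The arms of mir-3057 matched only transcripts of Apba3 annotated as processed or as retaining an intron. Where a mature arm does lie in the mRNA, its reads may be miRNA or pieces of the mRNA, which these counts cannot tell apart.

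Hairpin mir-3061, in an untranslated part of the phosphatase gene Ppp2ca (chr11:52126746-52126836), had few counts. It had 0.349, 1.29 and 4.32 CPM in control, 1.91, 4.07 and 5.86 in SAFB, and 1.17, 3.36 and 3.83 in ERH, with overlap throughout. Before TMM scaling it reached the filter level in 1 control, 4 SAFB and 5 ERH libraries, so it was tested through the knockouts and the values are descriptions. The log2 fold change was 1.08 (SE 0.44, edgeR adjusted p = 0.0395) for SAFB and 0.76 (SE 0.45, adjusted p = 0.170) for ERH. The SAFB call was lost without any library of control guide 1, control guide 2 batch 3, SAFB guide 1 batch 2 or 3, or SAFB guide 2 batch 2, at 0.93 to 1.11 with adjusted p from 0.0507 to 0.0776, and with spike-in scaling at 0.245. The ERH value passed the threshold without control guide 2 batch 1.

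RefSeq gave no position for 11 members, of which mir-6539 and mir-1949 changed in both knockouts. Hairpin mir-6539 fell from a median of 106 CPM in control, with a lowest library of 91.0, to 41.6, 50.2 and 67.7 in SAFB and 52.3, 57.6 and 72.8 in ERH, without overlap. The log2 fold change was -1.02 (SE 0.13, edgeR adjusted p = 3.66e-07) for SAFB and -0.84 (SE 0.13, adjusted p = 5.14e-06) for ERH, where spike-in scaling gave -0.58 (adjusted p = 0.0653). Hairpin mir-1949 rose from 9.35, 13.7 and 17.1 CPM in control to 18.6, 22.9 and 36.4 in SAFB, without overlap, and to 13.5, 32.5 and 56.7 in ERH, with overlap. Its log2 fold changes were 0.90 (SE 0.27, edgeR adjusted p = 0.00768) and 1.42 (SE 0.27, adjusted p = 0.000107). The SAFB call was lost without the population control guide 2 or SAFB guide 2, at 0.74 to 0.78 with adjusted p from 0.0572 to 0.0866. Some members resemble repeats: the mature sequence of mir-3470b occurs in transcripts of 546 genes and that of mir-3473b in 343, so the source of their reads cannot be told, and neither was called.

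**Figure D5:**
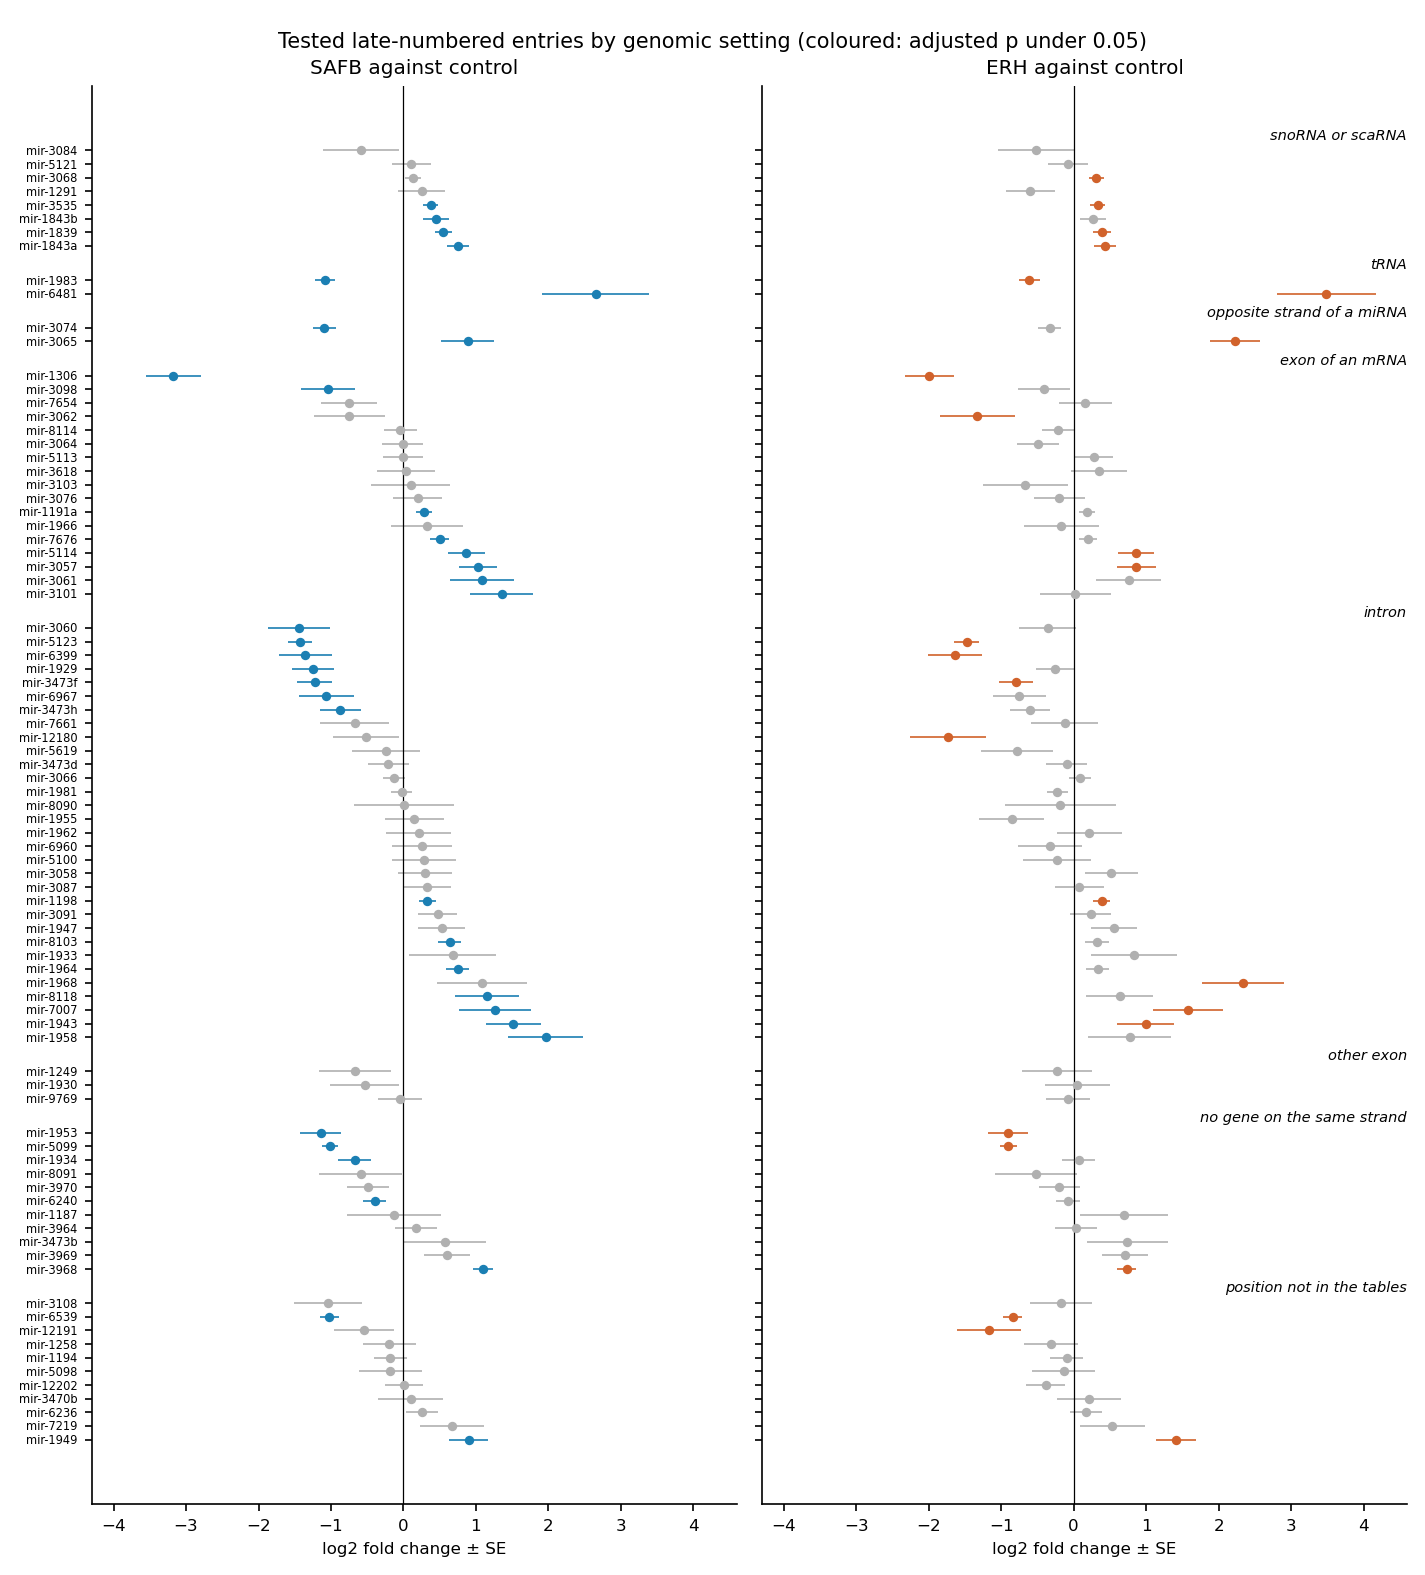
Log2 fold change with its SE (x axes) of the 85 tested members against control, SAFB on the left and ERH on the right, grouped by genomic setting, with calls in colour and all others grey. The 8 tested members in small nucleolar or Cajal body RNAs show 4 calls upward and 0 downward in each knockout. Of all tested entries 30.8% (SAFB) and 26.4% (ERH) were called upward, and 25.3% and 27.5% downward. No difference between settings was tested.

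Some of these hairpins carry a number that a human miRNA also bears. Of 14 such names listed, 6 were members and all 6 were tested: mir-1249, mir-1306, mir-3064, mir-3065, mir-3074 and mir-3618. SAFB called 1 higher and 2 lower, and ERH 1 and 1. Of 6 hairpins listed as lying inside or opposite another RNA, 5 were members, of which SAFB called 2 higher and 3 lower, and ERH 2 and 2. Of all tested entries 56.0% were called in SAFB and 53.8% in ERH. The lists were written with results of these data known, and their completeness was not checked. The second leaves out mir-3535, for example, which the annotation placed in a small nucleolar RNA.

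ERH and SAFB were also compared with each other. Of the 85 tested members 12 differed, 7 higher in ERH and 5 higher in SAFB, beside 39.6% of all tested entries, 23.8% higher and 15.8% lower. In 2 of them, mir-3065 and mir-1983, the libraries did not overlap, beside 20.5% of all entries. The median difference over tested members was 0.00 (0.0039), and over all tested entries 0.04. For mir-1306, 1.18 higher in ERH (edgeR adjusted p = 0.0249), the call was lost without any SAFB guide 1 library or without ERH guide 2 batch 1 or 2, at 0.94 to 1.08 with adjusted p from 0.0503 to 0.0822. Without the population SAFB guide 1 or ERH guide 2 the difference was 0.57 or 0.22 (edgeR adjusted p = 0.343 and 0.749).

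Populations of the same genotype served as the background. Guide 2 against guide 1 called no member in control, SAFB or ERH by edgeR, with 0.0%, 0.0% and 0.366% of all tested entries called. These comparisons set 3 libraries against 3, beside 6 against 6 between genotypes, so they detect less. The log2 differences of members ran from -1.555 to 1.759 in control, -1.18 to 1.439 in SAFB and -1.579 to 1.807 in ERH. At an unadjusted p under 0.05 there were 5, 2 and 8 members. They included mir-1306 in SAFB and in ERH, whose guide 2 libraries lay above the guide 1 libraries in the plot of its counts. The smallest adjusted p of a member was 0.969 for control, 0.789 for SAFB and 0.141 for ERH.

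Some calls rest on few libraries. In SAFB, leaving out 1 library ended the call of 9 members in at least 1 fit: mir-1843b, mir-1934, mir-3061, mir-3065, mir-3098, mir-6240, mir-6967, mir-7007 and mir-8118. The weakest was mir-6240, lost in 17 of 18 fits, at -0.37 to -0.26 with adjusted p up to 0.202. In ERH the same held for 3 members, mir-12191, mir-1943 and mir-3062, with mir-3062 lost in 11 of 18 fits at -1.33 to -1.08 with adjusted p up to 0.101. Every other call in the comparisons with control held when any 1 library was left out. Leaving out 1 population ended more calls, those of 17 members in SAFB and 13 in ERH in at least 1 fit.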

How the data were processed

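Small RNA was measured in 18 Baf3 libraries made with the QIAGEN QIAseq miRNA kit, per the labels' protocols. The authors deposited whole-number counts per miRNA precursor and for 4 spike-ins, and SAMtools is named in the submitters' processing notes. The aligner, the build, the use of molecular identifiers and the treatment of reads with several matches are not given in the sources used here. An entry holds both arms of a hairpin and all its gene copies. Reads may not be independent molecules, so depth speaks to counting error only.

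Counts without spike-ins were filtered (filterByExpr, minimum count 10, by population), scaled by TMM and tested by edgeR's quasi-likelihood test with a term for genotype (for the guide comparisons, for population) over all 18 libraries, with Benjamini-Hochberg adjustment and a threshold of 0.05. The scripts were checked on simulated data. Versions were R 4.3.3, edgeR 4.0.16, limma 3.58.1, DESeq2 1.42.0, Python 3.11.15, scipy 1.17.1, pandas 2.3.3 and matplotlib 3.10.9. The labels give a batch number that pairs libraries. Residuals of libraries of the same batch correlated at a mean r of 0.028 over 45 pairs, and those of different batches at -0.014 over 90.

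Members and lists were chosen with earlier results of these data known. Library values are given for the 5 members most abundant in control, the 12 with the smallest adjusted p among those called without overlap, and mir-1198, mir-1306, mir-1983 and mir-3061. Positions come from RefSeq (GRCm38.p6) and overlaps from GENCODE M21, which may differ from the build the authors used. Alternatives were DESeq2, other scalings and filters, the batch as a block, single batches, and leaving out each library or population.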

Additional observations from a re-analysis of the deposited data

Results flagged for a closer look

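In 3 of 51 groups of 6 libraries, 1 library lay far from the other 5. Whether this is more than chance gives was not tested. For mir-5099 the ERH guide 2 batch 2 library stood at 9.17 on the scale of log2(CPM + 0.5), against 8.87 to 8.97 in the other ERH libraries. For mir-1198 the ERH guide 2 batch 3 library stood at 8.49, against 7.78 to 7.9996 in the others. For mir-3061 the ERH guide 1 batch 2 library, with 4 counts, stood at 0.74, against 1.66 to 2.12.

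The 2 knockouts differed from each other in 12 members by edgeR at an adjusted p under 0.05. ERH was higher, on the log2 scale, by 1.34 for mir-3065, 1.25 for mir-1968, 1.18 for mir-1306, 1.00 for mir-1929, 0.76 for mir-3074, 0.74 for mir-1934 and 0.47 for mir-1983. ERH minus SAFB was -1.33 for mir-3101, -1.19 for mir-1958, -0.85 for mir-1291, -0.41 for mir-1964 and -0.36 for mir-3968. For mir-1306, mir-1929, mir-1968, mir-3101 and mir-1958 the lower group did not reach the filter level, 2.86 CPM before TMM scaling, in 3 libraries. These were tested through groups in which they are high and are descriptions. The call of mir-1958 was lost in 11 of 18 fits without 1 library, at -1.22 to -1.10. That of mir-1968 was lost in 12 of 18 such fits, at 1.00 to 1.31, and in 5 of 6 fits without 1 population. Without the population SAFB guide 1 or ERH guide 1 the mir-1934 difference was not called, at 0.34 to 0.42 (edgeR adjusted p from 0.276 to 0.390).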

How the results depend on the processing

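Of 62 calls against control, DESeq2 and RLE scaling each ended 1 (mir-6240) and total-count scaling 6. Spike-in scaling ended 21 and changed the sign of 1 more, which was then not called. Fitting without the low-count filter ended 12 of the 62. The replicate block ended 0 of them and changed no call beyond the 3 given beside mir-1291, mir-1968 and mir-3473h, and single batches reversed 0. Of the fits without 1 library 79 of 1116 calls were lost, and without 1 population 65 of 363. With spike-in scaling the sign changed for mir-1191a in SAFB (-0.0014) and, for ERH against SAFB, for mir-3968 (0.19) and mir-1964 (0.16). Their edgeR adjusted p were 0.996, 0.504 and 0.644, so none was called in the other direction. The median of all tested entries moved from 0.01 to -0.23 in SAFB and from -0.06 to 0.23 in ERH with spike-ins, and to 0.24 in ERH with total counts. Members higher in SAFB, 21, became 5 with spike-ins and 13 with a mean of at least 20 counts. That stricter filter still tested 38 of the 62 calls against control, and 37 of these held. Members lower in SAFB, 16, became 9 with that filter and 10 without the population SAFB guide 2. Members higher in ERH, 14, became 22 with total counts and 9 without ERH guide 2. Members lower in ERH, 11, became 6 with total counts, 5 with spike-ins and 6 with the stricter filter. For ERH against SAFB, the 7 higher became 17 with total counts, 21 with spike-ins, 4 without SAFB guide 1 and 3 without ERH guide 2. The 5 lower became 1 with total counts, 0 with spike-ins or the stricter filter, 2 without the low-count filter, SAFB guide 2 or ERH guide 2, 1 without ERH guide 1, and 3 with a summed count of at least 180. With spike-ins guide 2 against guide 1 called 13 members in control and 19 in ERH, against 0 with TMM. The causes were not tested. Leaving out 1 library gave 18 to 23 higher and 12 to 16 lower in SAFB, 13 to 18 and 9 to 12 in ERH, and 5 to 8 and 1 to 6 for ERH against SAFB, with the 1 found without SAFB guide 2 batch 3. The log2 ratio of mir-1306 to mir-3618, under alternatives chosen after seeing the data, differed from control by -3.15 in SAFB and -2.29 in ERH with 1 added to each count, and by -3.52 to -2.83 and -2.48 to -2.19 without 1 library. Most members had few counts, which limits the changes that could be detected.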
